A study of Mus musculus with 6 samples.

Results

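The Zfp genes encode zinc finger proteins of the mouse. The genes described here are the protein-coding genes whose symbol is Zfp followed by a digit and whose level averaged 5 or more CPM (reads counted per gene, scaled to the total of their library) over 6 RNA-seq libraries. Of 394 such genes in the GENCODE annotation, 298 met this level, 96 lay under it, and 12 of those 96 had no count at all. The rule thus used the symbol and the mean level over both genotypes, and not the difference between genotypes. It was, however, set with earlier results of these data known. Just under the limit lay Zfp964 at a mean of 4.62 CPM, Zfp960 at 4.72 and Zfp382 at 4.997, and just inside it lay Zfp458 at 5.05, Zfp982 at 5.15 and Zfp93 at 5.24. All 298 genes passed the filter on low counts and were tested.

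The libraries came from mouse embryo heads at embryonic day 8.5, a stage at which cranial neural crest cells are leaving the neural folds. Sf3b4 encodes a subunit of SF3B, the part of the U2 spliceosomal particle that binds near the branch point of introns. Wild-type heads, 3 pools, were compared with heads of embryos in which Sf3b4 had been deleted in neural crest cells, also 3 pools, with 3 heads to a pool. The genotype label reads Sf3b4 NCC mutant, while the titles call the same embryos homozygous null, and the sources used here do not give the Cre driver, the strain or how complete the loss was. Whole heads were used, so a neural crest deletion is seen among many cells that keep Sf3b4.

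Classical zinc fingers of the C2H2 kind are short loops held by a zinc ion, and strings of them read DNA sequence. In many mammalian members the fingers are preceded by a KRAB box (Krüppel-associated box), which recruits the corepressor TRIM28 and, through it, the histone methyltransferase SETDB1. KRAB zinc finger genes multiplied by tandem duplication, so that relatives lie side by side in chromosome clusters, and many of them silence retroelements in the early embryo. A smaller share of Zfp genes lack the box and include RNA-binding proteins and regulators of neural and craniofacial development.

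Among the 298 members, 164 carried a KRAB box in their annotated protein and 134 did not. The median number of C2H2 fingers was 12 in the KRAB proteins and 7 in the others, the largest number was 37, and 8 members had no finger that matched the pattern searched. Members lay on 20 chromosomes, with 70 on chromosome 7, 39 on chromosome 17 and 25 on chromosome 13. The median member had a level of 20.5 CPM. Per kilobase of exon, the median level was 3.75 CPM in the KRAB members and 7.47 CPM in the members without the box.

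Total counts ran from 6930827 to 12251910 per pool, which gave the median member 149 counts in the smallest pool. Levels from here on are CPM after TMM scaling, which adjusts for composition between libraries, and p-values are from edgeR's quasi-likelihood test, adjusted by Benjamini and Hochberg's method over all genes tested. Sf3b4 itself stood at 77.5, 72.6 and 63.7 TMM-normalised CPM in wild-type pools 1 to 3 and at 55.9, 64.0 and 60.8 in mutant pools 1 to 3 (log2 fold change -0.24 ± 0.09 SE, edgeR adjusted p = 0.128), and the groups overlapped. The marker and target lists that follow were chosen with earlier results of these data known. At an edgeR adjusted p under 0.05, 2.65% of all 14008 genes tested rose and 3.88% fell. Of 10 neural crest markers 6 fell (Sox10, Tfap2b, Sox9, Ngfr, Erbb3 and Itga4). The summed level of that list was 406 to 445 CPM in wild type and 280 to 325 CPM in the mutant. All 18 listed p53 targets rose, their sum going from 361 to 393 CPM to 873 to 1228 CPM. Of 8 surface ectoderm markers 2 rose (Cldn6 and Perp), with sums of 401 to 448 against 497 to 561 CPM, and of 8 endothelial markers 1 rose (Kdr), with sums of 222 to 247 against 267 to 281 CPM. Of 8 neural tube markers 2 fell (Hes5 and Nes), and the sums overlapped (542 to 565 and 499 to 555 CPM). The other neural tube markers, among them Sox2, Pax6 and Otx2 at means of 74.0 to 124 CPM, did not pass the test. Sums of erythroid, heart and extraembryonic markers overlapped between genotypes, and Hba-a2 was listed at 0 in every pool. In bulk RNA of this kind, fewer cells of a type and less RNA per cell cannot be told apart. Wild-type pool 1 and mutant pool 3 each held 1 count from the Y-linked list, and every other pool held 344 to 664.

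Most Zfp genes differed little between the genotypes. At an adjusted p under 0.05 in edgeR's quasi-likelihood test over all 14008 genes tested, 9 members rose in the mutant heads and 3 fell. That is 4.03% of the members, while 6.52% of all genes and 7.59% of the 10740 genes with a mean of 5 or more CPM passed the test. Rises made up 3.02% of members, against 2.65% of all genes and 2.96% of those with 5 or more CPM. Falls made up 1.01% of members, against 3.88% and 4.63%. Only Zfp365 changed by more than 2-fold, and 290 of 298 members lay within 0.5 of no change on the log2 scale. Unadjusted p was under 0.05 for 37 members with higher and 17 with lower values in the mutant, together 18.1% against 23.2% of all genes. DESeq2 called 6 members higher and 2 lower, and limma-voom 6 and 3.

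These calls depended on single pools. Without wild-type pool 1, 6 members were called higher and 3 lower. Without wild-type pool 2, mutant pool 1, 2 or 3, no more than 2 members were called higher, while without wild-type pool 3 the counts were 25 and 10. Zfp365 alone kept its call in all 6 of these fits. The other called members lost theirs without 3 to 5 of the 6 pools, in each case with mutant pool 1 among them, although none turned its direction.

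Zfp365 showed the largest rise. The gene encodes DBZ, a protein that binds DISC1 in neurons and whose human counterpart is known for the stability of telomeres and fragile sites. Its level was 13.2, 9.72 and 12.5 CPM in the wild-type pools and 61.9, 58.1 and 39.3 CPM in the mutant pools. Every mutant pool lay well above every wild-type pool, and mutant pool 3 was the lowest of the 3. The rise was 4.46-fold (log2 2.16 ± 0.18 SE, edgeR adjusted p = 7.8e-05). In spite of its symbol, the annotated protein of 408 residues held no C2H2 finger that the pattern matched and no KRAB box. The gene lies at chr10:67886103-67912662 on the minus strand, outside the clusters described below.

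Of the other 8 members that rose, 7 carry the KRAB box. Zfp868, in a small cluster on chromosome 8, stood at 20.2, 23.1 and 22.2 CPM in wild type and at 28.2, 32.3 and 28.8 CPM in the mutant (log2 0.45 ± 0.10 SE, edgeR adjusted p = 0.0184). Zfp141 on chromosome 7 stood at 23.8, 27.1 and 30.2 against 37.3, 39.1 and 34.3 CPM (log2 0.45 ± 0.11 SE, edgeR adjusted p = 0.0200). In both genes the groups did not overlap and the log2 difference was 0.41 for each among pools with Y-linked reads and 0.50 and 0.52 between the 2 pools without them. About 11.9% of the 50-base runs of Zfp141 transcripts also occur in another gene, so a part of its reads could belong elsewhere.

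Zfp110 encodes NRIF, an interactor of the neurotrophin receptor p75. It stood at 38.1, 34.7 and 39.8 CPM in wild type and 45.7, 49.7 and 48.2 CPM in the mutant (log2 0.35 ± 0.09 SE, edgeR adjusted p = 0.0328). Zfp955a stood at 13.1, 15.1 and 16.8 against 20.2, 20.9 and 20.4 CPM (log2 0.45 ± 0.12 SE, edgeR adjusted p = 0.0366), but it shares 52.1% of its 50-base runs, chiefly with its neighbour Zfp955b, and reads of the pair cannot be kept apart with certainty. Zfp688 stood at 11.3, 10.4 and 9.11 against 16.9, 14.0 and 13.0 CPM (log2 0.52 ± 0.15 SE, edgeR adjusted p = 0.0451). The mutant pools lay above the wild-type pools in each of these genes.

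Zfp759 and Zfp120 had the largest adjusted p among the called genes. Zfp759 stood at 5.55, 7.33 and 7.13 CPM in wild type and at 8.76, 10.1 and 11.6 CPM in the mutant (log2 0.60 ± 0.17 SE, edgeR adjusted p = 0.0483). Zfp120 stood at 9.52, 11.8 and 15.5 against 20.8, 19.0 and 15.8 CPM (log2 0.59 ± 0.17 SE, edgeR adjusted p = 0.0494), so that wild-type pool 3 nearly met mutant pool 3. Wild-type pool 1 was the lowest pool in both, and both calls were lost without it. Zfp105, which has fingers but no KRAB box, completed the list with 37.6, 36.8 and 37.1 CPM in wild type and 45.2, 48.0 and 46.9 CPM in the mutant (log2 0.33 ± 0.09 SE, edgeR adjusted p = 0.0326). The spread within its genotypes was small in these pools (37.2 ± 0.424 and 46.7 ± 1.39 CPM, SD, n = 3). Even so, its call was kept in only 2 of the 6 fits with 1 pool left out, and its DESeq2 adjusted p was 0.0512.

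The 3 members that fell all lack the KRAB box. Zfp462 encodes a large finger protein of chromatin whose human counterpart is mutated in Weiss-Kruszka syndrome, a condition with craniofacial features. It was among the 5 members with the highest CPM, at 265, 284 and 272 CPM in wild type and 220, 238 and 188 CPM in the mutant (log2 -0.34 ± 0.09 SE, edgeR adjusted p = 0.0248). Zfp609, a partner of the cohesin loader NIPBL in neural progenitors, stood at 61.1, 64.3 and 61.1 against 46.7, 53.6 and 43.2 CPM (log2 -0.37 ± 0.09 SE, edgeR adjusted p = 0.0247). Zfp771 stood at 16.7, 16.2 and 16.5 against 11.2, 11.5 and 13.2 CPM (log2 -0.47 ± 0.12 SE, edgeR adjusted p = 0.0357). All mutant pools lay below all wild-type pools in the 3 genes. Mutant pool 3 was lowest for Zfp462 and Zfp609 but highest of the mutant pools for Zfp771.

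**Figure D1:**
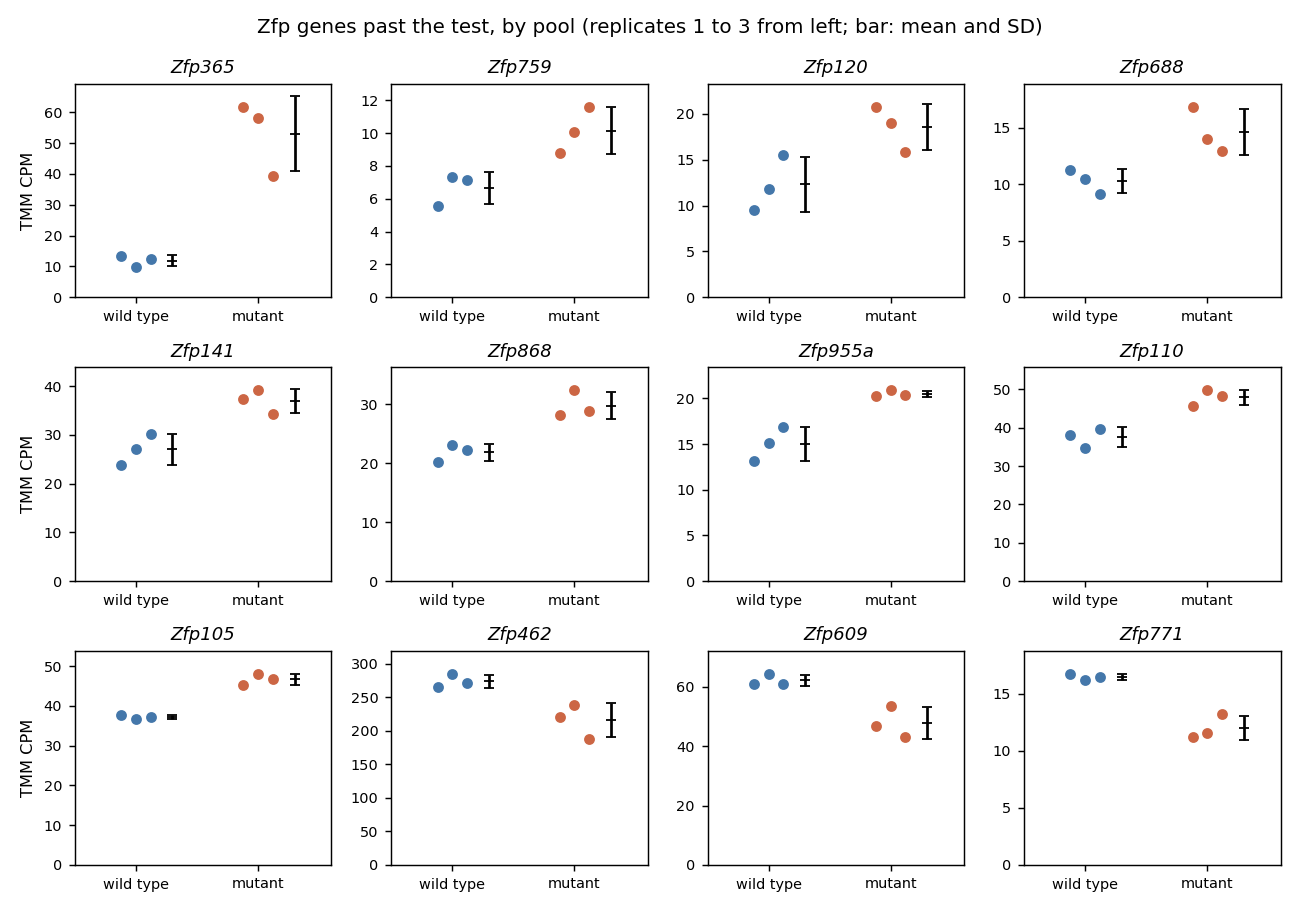
Level of each of the 12 called Zfp genes in every pool, in TMM-normalised CPM on linear axes that start at 0. Points are pools (wild type blue, mutant orange), and the bar beside each group is its mean with the SD over 3 pools. Zfp365 goes from 9.72 to 13.2 CPM in wild type to 39.3 to 61.9 CPM in the mutant, and the other genes differ by less than 2-fold.

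Promoters of 4 genes that rose are shown as examples picked after their motifs were known: Zfp365, the largest rise, and 3 KRAB genes from separate clusters. Each sequence is the 250 bases before the RefSeq start site in GRCm38.p6, read along the gene's strand. The windows are chr10:67912663-67912912 on the minus strand (Zfp365), chr7:42505754-42506003 minus (Zfp141), chr7:12834511-12834760 plus (Zfp110) and chr17:33255146-33255395 minus (Zfp955a). Capitals mark matches on either strand to CCAAT (the CCAAT box), to GGGCGG (the GC box), to TATAAA (the TATA box), the ETS motif CCGGAAGT, the NRF1 motif, the CRE motif TGACGTCA and the YY1 motif GCCATNTT.
Zfp365: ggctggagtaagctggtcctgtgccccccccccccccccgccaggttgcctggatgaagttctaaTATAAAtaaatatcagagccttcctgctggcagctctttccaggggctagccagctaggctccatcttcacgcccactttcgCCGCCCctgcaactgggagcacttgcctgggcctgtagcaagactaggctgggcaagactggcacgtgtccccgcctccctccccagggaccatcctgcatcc
Zfp141: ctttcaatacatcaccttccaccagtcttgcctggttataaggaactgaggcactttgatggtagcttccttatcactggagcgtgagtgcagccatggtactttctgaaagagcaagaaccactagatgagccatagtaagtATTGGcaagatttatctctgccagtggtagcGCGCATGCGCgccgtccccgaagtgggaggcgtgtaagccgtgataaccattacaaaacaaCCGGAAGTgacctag
Zfp110: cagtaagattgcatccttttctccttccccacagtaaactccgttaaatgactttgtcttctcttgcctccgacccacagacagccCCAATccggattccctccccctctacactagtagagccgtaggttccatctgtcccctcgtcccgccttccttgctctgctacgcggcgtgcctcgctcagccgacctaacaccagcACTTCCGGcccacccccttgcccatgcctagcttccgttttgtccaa
Zfp955a: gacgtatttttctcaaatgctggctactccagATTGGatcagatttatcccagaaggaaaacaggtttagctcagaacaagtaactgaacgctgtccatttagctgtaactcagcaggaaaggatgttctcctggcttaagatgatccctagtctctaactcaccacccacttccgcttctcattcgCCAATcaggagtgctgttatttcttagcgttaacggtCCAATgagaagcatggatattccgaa
Zfp365 held a TATAAA match at -185 and a GC box at -103 from the start. The 3 KRAB promoters shown held CCAAT and no GC box, with CCAAT at -107 in Zfp141, at -164 in Zfp110 and at -218, -63 and -26 in Zfp955a. An ETS motif stood at -15 in Zfp141 and at -47 in Zfp110, and Zfp141 also held the NRF1 motif at -76. Of the other KRAB genes that rose, Zfp759 held CCAAT at -65 and an ETS motif at -77, and Zfp120 held CCAAT at -220 and -62. Neither held a GC box. Zfp868 and Zfp688 differed from these. Zfp868 has 2 listed starts, 1 with GC boxes at -112, -72, -60 and -49 and a CRE motif at -28, and the other with a GC box at -10 and CCAAT at -63 and -37. The window of Zfp688 held none of the motifs. Over all 9 members that rose, 6 held CCAAT and 3 held a GC box.

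The same windows were searched for the 245 members with a RefSeq promoter entry, 140 of them KRAB genes. GGGCGG occurred in 30.0% of KRAB promoters, in 62.9% of the 105 promoters without KRAB and in 66.4% of 9846 promoters of protein-coding genes tested. CCAAT occurred in 55.7%, 45.7% and 41.0%, and the ETS motif in 10.7%, 10.5% and 6.77%. The YY1 motif was found in 8.57% of both member classes and in 5.15% of all. KRAB promoters also had the lowest GC content, with medians of 52.4%, 63.2% and 62.0%. The consensus decamer of p53 matched in 7.14% of KRAB promoters, 3.81% of those without KRAB and 7.10% of all, and in 0 of the 9 promoters of members that rose. The search covers these letters in these windows and says nothing of binding, and motifs of few letters occur often by their length.

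The KRAB and non-KRAB members were set apart after the data were in hand, so the following is a description. Of 164 KRAB members 7 rose (4.27%, against 2.65% of all genes) and 0 fell (against 3.88%). At an unadjusted edgeR p under 0.05, 26 KRAB members were higher and 2 lower, and of all 14008 genes 1534 were higher and 1712 lower. DESeq2 called 4 higher and 0 lower, and limma-voom gave the same counts. The median log2 fold change of the KRAB members was 0.14, and 134 of them (81.7%) had a positive value. Of the 134 members without KRAB 2 rose and 3 fell, the median was 0.01, and 69 (51.5%) were positive. For all genes tested the median was 0.00.

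All mutant pools lay above all wild-type pools for 33 KRAB members (20.1%) and below for 6 (3.66%), while among all genes 13.8% lay above and 14.4% below. Over all 298 members the counts were 50 above (16.8%) and 21 below (7.05%).

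Pool by pool, the KRAB members did not divide cleanly by genotype. Their median deviation from each gene's 6-pool mean (log2) was -0.22, -0.02 and 0.05 in wild-type pools 1 to 3 and 0.10, 0.13 and 0.02 in mutant pools 1 to 3. Wild-type pool 3 thus lay above mutant pool 3, and wild-type pool 1 stood far below the rest. Wild-type pool 1 was the lowest of the 6 pools for 91 of 164 KRAB members (55.5%), for 38 of 134 members without KRAB (28.4%) and for 20.6% of all genes. Members without KRAB stayed between -0.03 and 0.04 in every pool. Without wild-type pool 1 the KRAB median was 0.10, and without wild-type pool 3 it was 0.22.

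**Figure D2:**
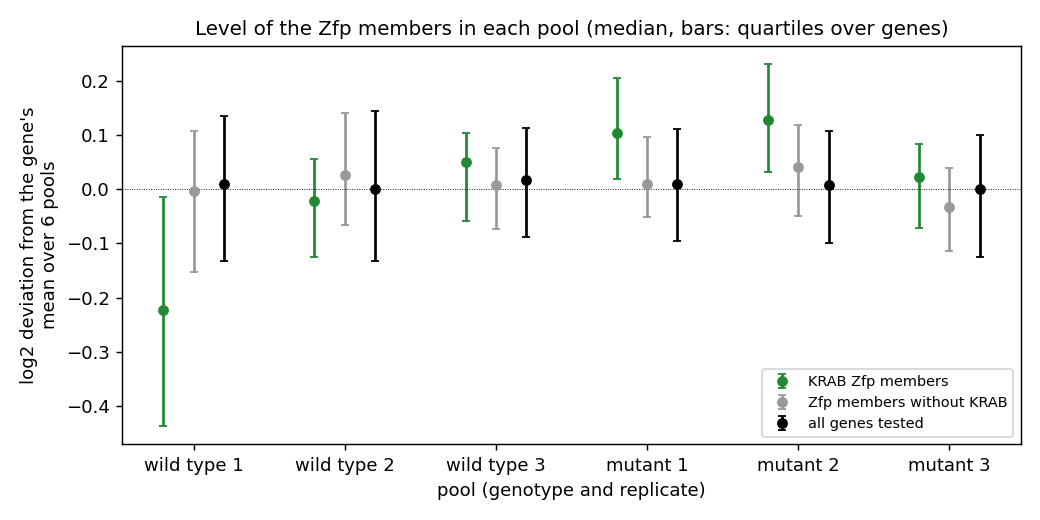
Level of Zfp members in each pool as the log2 deviation of TMM-normalised CPM (plus 0.5) from the gene's mean over 6 pools. Points are medians over genes and bars run from the lower to the upper quartile, for 164 KRAB members (green), 134 members without KRAB (grey) and all 14008 genes tested (black). The KRAB median is -0.22 in wild-type pool 1 and lies between -0.02 and 0.13 in the other pools.

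Base composition moved with this pattern. KRAB members had transcripts of low GC content (median 41.9%, against 48.8% in members without KRAB and 49.7% in all genes tested), and 107 of the 164 fell in the lowest quintile of all genes by GC, below 43.8%. The 2666 genes of that quintile that are no Zfp member had median deviations of -0.18, 0.02 and 0.08 in wild-type pools 1 to 3 and 0.07, 0.07 and -0.03 in the mutant pools. Wild-type pool 1 was the lowest pool for 51.5% of them. Low-GC genes outside the family thus shared the low value of wild-type pool 1.

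Within each quintile of GC content the KRAB median was higher than that of all genes. GC content was not matched within a quintile, and its part in the KRAB values was not tested. In the lowest quintile the median log2 fold change was 0.23 for KRAB members (94 of 107 positive), 0.09 for 36 members without KRAB and 0.07 for all genes. In the second it was 0.08 for 28 KRAB members and 0.01 for all genes. The remaining quintiles held only 13, 12 and 4 KRAB members, with medians of 0.07, 0.06 and 0.05 beside 0.00, -0.02 and -0.04 for all genes. With counts corrected for gene length and GC content, the KRAB median was 0.11 with 128 positive members, and the median without KRAB was 0.05. When the pools without Y-linked reads were left out, the KRAB median was 0.11 with 126 positive. The median KRAB difference, mutant minus wild type, was 0.10 among pools with Y-linked reads and 0.25 between the 2 pools without them.

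**Figure D3:**
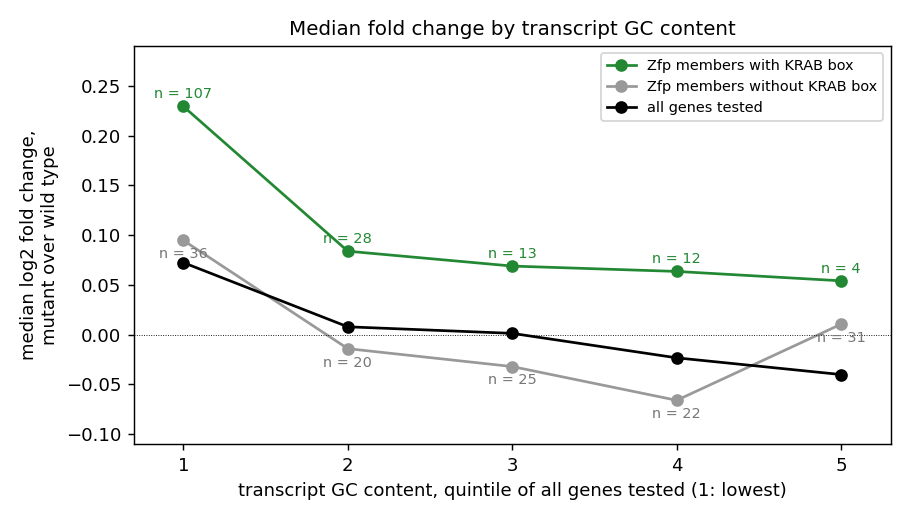
Median log2 fold change (mutant over wild type, vertical axis) in quintiles of transcript GC content from the lowest (1) to the highest (5), with the quintiles set over all genes tested. Lines join the medians of KRAB members (green), members without KRAB (grey) and all genes (black), and n gives the members behind each point. The KRAB median is 0.23 in the lowest quintile and 0.05 to 0.08 in the others.

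Runs of Zfp genes with gaps of at most 1 Mb gave 19 chromosome clusters with 4 or more members, named here by chromosome and letter. They held 150 members, of which 6 rose and 1 fell (4.67% called, below the 6.52% of all genes), with a median log2 fold change of 0.11. The 148 members outside them had 3 rises, 2 falls (3.38% called) and a median of 0.04. The genes named for each cluster below are those with its smallest p, which need not have its largest fold change. The KRAB members had the same median inside clusters (119 genes) and outside (45 genes), 0.14. Cluster medians were positive in 18 of 19 clusters, but 9 lay within 0.1 of 0, and wild-type pool 1 was the lowest pool in 11 of the 19. In 4 clusters (7b, 8a, 8b and 11a) the pool medians of the genotypes did not overlap, a count that was not compared with other runs of genes.

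**Figure D4:**
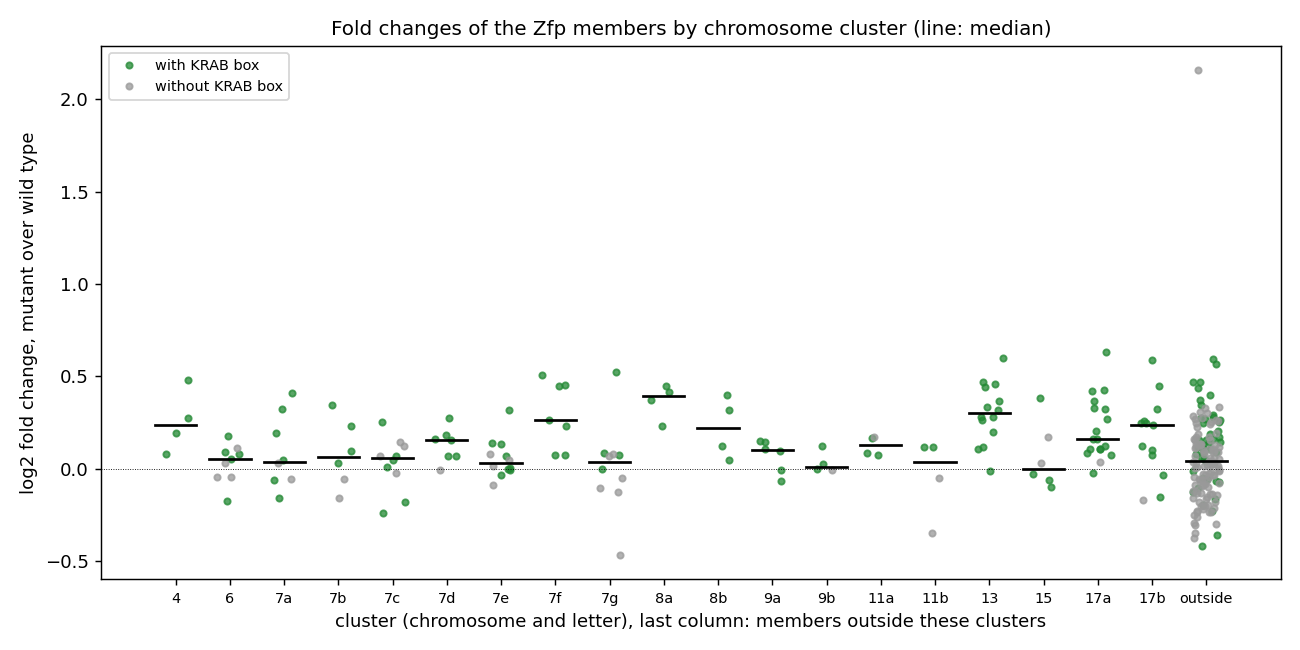
Log2 fold change (mutant over wild type) of each of the 298 Zfp members, by chromosome cluster, with members outside the described clusters in the last column. Points are genes, green with and grey without the KRAB box, and lines are medians. Cluster medians run from 0.00 on chromosome 15 to 0.40 in cluster 8a, and the point above 2 is Zfp365.

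Cluster 8a on chromosome 8 (69.21 to 69.79 Mb) had the highest median, 0.40. All 4 of its members, each with a KRAB box, lay higher in every mutant pool than in every wild-type pool. Among all genes tested 13.8% did so. Beside Zfp868, which passed the test, Zfp869 stood at 23.1, 26.1 and 30.5 CPM in wild type and 37.6, 33.9 and 31.6 CPM in the mutant (log2 0.37 ± 0.11 SE, edgeR adjusted p = 0.0615). The other members, Zfp930 (log2 0.42, edgeR adjusted p = 0.086) and Zfp866 (log2 0.23, adjusted p = 0.113), were named after their values were seen. Without wild-type pool 1 the median of the cluster was 0.27. Close by, cluster 8b (71.88 to 71.99 Mb) held 4 KRAB members with a median of 0.22 and no call, led by Zfp617 (log2 0.32, edgeR adjusted p = 0.130) and Zfp709 (log2 0.40, adjusted p = 0.172), and its median without wild-type pool 1 was 0.12.

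Cluster 13 on chromosome 13 (67.04 to 67.83 Mb) is a run of 23 annotated Zfp genes, 14 of them members and all 14 with KRAB. Its median was 0.30, and 13 members were positive. All mutant pools lay above all wild-type pools for 5 of the 14 members (35.7%), against 13.8% of all genes tested. Zfp759 passed the test, and next came Zfp65 at 21.7, 26.4 and 30.2 CPM in wild type and 33.1, 30.9 and 31.1 CPM in the mutant (log2 0.28 ± 0.12 SE, edgeR adjusted p = 0.160). The cluster's pool medians were -0.46, -0.10 and 0.09 in wild type and 0.20, 0.20 and 0.03 in the mutant, so wild-type pool 3 lay above mutant pool 3. Without wild-type pool 1 the median of the cluster was 0.13.

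Chromosome 17 carries 2 clusters. Cluster 17a (21.01 to 23.60 Mb) had 18 members, 17 of them positive, a median of 0.16 and no call. Its smallest p-values were those of Zfp40 (log2 0.43, edgeR adjusted p = 0.142) and Zfp51 (log2 0.37, adjusted p = 0.216). Pool medians were -0.58, 0.05 and 0.10 in wild type and 0.16, 0.20 and -0.03 in the mutant. Groups did not overlap for 1 of the 18 genes (5.56%), against 28.3% of all genes tested. Without wild-type pool 1 the median was 0.05. Cluster 17b (32.77 to 33.63 Mb) had 13 members, 10 of them positive, and a median of 0.24. Zfp955a rose there, and Zfp563 stood at 5.73, 5.07 and 7.65 CPM in wild type and 9.33, 10.7 and 7.97 CPM in the mutant (log2 0.59 ± 0.18 SE, edgeR adjusted p = 0.0697). Without wild-type pool 1 its median was 0.12.

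Cluster 4 on chromosome 4 (145.51 to 147.85 Mb) had the same low wild-type pool. Only 4 of its 18 annotated genes were members, with a median of 0.24 and values of Zfp982 (log2 0.48, edgeR adjusted p = 0.283) and Zfp992 (log2 0.28, adjusted p = 0.312) that did not pass. Its pool medians were -0.66, 0.06 and 0.12 in wild type and 0.21, 0.32 and -0.06 in the mutant, and without wild-type pool 1 the median was 0.10. Groups overlapped in all 4 genes, while 28.3% of all genes tested had groups that did not overlap. Zfp992 shared 43.2% of its 50-base runs with other genes.

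**Figure D5:**
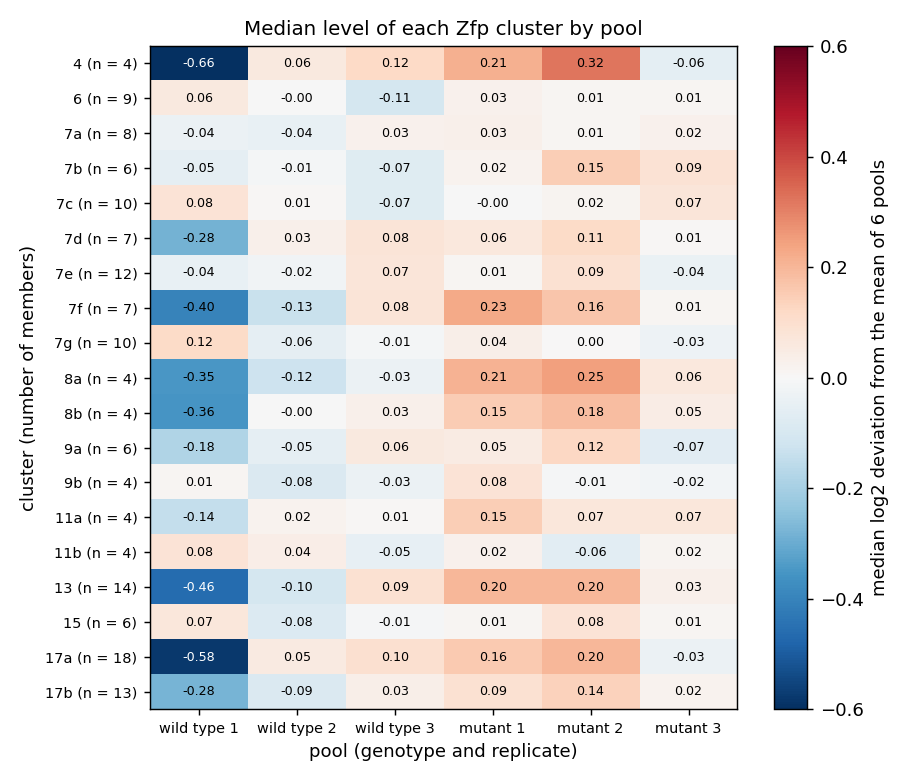
Median level of the members of each of the 19 Zfp clusters (rows, with the number of members) in each pool (columns), as the log2 deviation from the gene's 6-pool mean, from blue (lower) through white (0) to red (higher). Wild-type pool 1 is the lowest column for clusters 4, 13 and 17a, at -0.66, -0.46 and -0.58.

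Chromosome 7 carries 7 clusters, which differed among themselves. Cluster 7f (41.63 to 43.62 Mb), home of Zfp141, had 7 KRAB members, all positive, and a median of 0.26 (0.15 without wild-type pool 1). Its next member, Zfp976, stood at 9.61, 12.4 and 13.4 CPM in wild type and 16.2, 17.7 and 14.0 CPM in the mutant (log2 0.45 ± 0.15 SE, edgeR adjusted p = 0.0833). Cluster 7d (27.69 to 28.38 Mb) had a median of 0.15, which was 0.03 without wild-type pool 1, with Zfp850 (log2 0.27, edgeR adjusted p = 0.174) and Zfp60 (log2 0.18, adjusted p = 0.444) in the lead.

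The other chromosome 7 clusters had medians between 0.03 and 0.06. Cluster 7b (12.42 to 12.99 Mb) held Zfp110, which rose, and Zfp606 (log2 0.23, edgeR adjusted p = 0.227). Cluster 7g (127.23 to 127.89 Mb) held calls in both directions, the rise of Zfp688 and the fall of Zfp771. Cluster 7a (6.13 to 7.21 Mb) was led by Zfp28 (log2 0.41, edgeR adjusted p = 0.239) and Zfp772 (log2 0.32, adjusted p = 0.255). In cluster 7c (24.08 to 25.23 Mb) the leading value was negative, in Zfp111 (log2 -0.24, edgeR adjusted p = 0.208), followed by Zfp180 (log2 0.14, adjusted p = 0.426). Cluster 7e (29.77 to 30.17 Mb) was led by Zfp940 (log2 0.32, edgeR adjusted p = 0.132) and Zfp74 (log2 0.14, adjusted p = 0.591).

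The remaining 6 clusters contained no called gene. Cluster 6 (47.82 to 48.62 Mb) had a median of 0.05 over 9 members, with Zfp282 at log2 0.18 (edgeR adjusted p = 0.195) and Zfp777 at -0.17 (adjusted p = 0.300). Cluster 9a (19.62 to 20.61 Mb) had a median of 0.10 (0.02 without wild-type pool 1), led by Zfp26 and Zfp317 at log2 0.14 and 0.11. Cluster 9b (22.06 to 22.31 Mb) had 0.01, with Zfp810 at 0.13 and Zfp809, a known silencer of murine leukaemia virus, at 0.03. Cluster 11a (50.81 to 51.07 Mb) had 0.13 (0.04 without wild-type pool 1), with Zfp2 and Zfp354a at 0.17 and 0.16. Cluster 11b (58.31 to 59.47 Mb) had 0.03, with Zfp692 at -0.35 (edgeR adjusted p = 0.203) and Zfp39 at 0.12. Cluster 15 (75.62 to 76.93 Mb) had 0.00, with Zfp707 at 0.38 (edgeR adjusted p = 0.187) and Zfp623 at 0.17. The named genes of these 6 clusters had values of both signs.

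Members were also grouped by finger number, without a split by KRAB, and KRAB members by shared sequence. Medians of the log2 fold change were 0.01 for the 8 members without a matched finger, 0.03 for 48 members with 1 to 5 fingers, 0.08 for 90 with 6 to 10, 0.11 for 92 with 11 to 15 and 0.11 for 60 with 16 or more. KRAB genes with over 10% of their 50-base runs found elsewhere (39 genes) had a median of 0.28, and the 125 others had 0.12. In those 39 genes wild-type pool 1 stood further apart, with pool medians of -0.40, 0.00 and 0.08 in wild type and 0.19, 0.22 and 0.04 in the mutant, and wild-type pool 3 lay above mutant pool 3. Their median GC content was 39.6%, against 42.7% in the 125 others, where wild-type pool 1 was at -0.15. Among all members 44 exceeded that share and 33 overlapped another gene over more than 10% of their exonic bases, 27 of them on the opposite strand, so reads of these genes are less certain.

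The members with the most reads showed small differences in both directions. Zfp207 encodes BuGZ, which loads BUB3 at kinetochores. It stood at 388, 416 and 470 CPM in wild type and 513, 513 and 504 CPM in the mutant, with no overlap (log2 0.26 ± 0.08 SE, edgeR adjusted p = 0.0584). The RNA-binding Zfp106 stood at 497, 458 and 486 against 410, 419 and 410 CPM (log2 -0.22 ± 0.07 SE, edgeR adjusted p = 0.0736), also with no overlap, and in the other direction. Zfp266 at 300 to 382 CPM (log2 0.10, edgeR adjusted p = 0.553) and Zfp638, a retroviral DNA silencer, at 208 to 272 CPM (log2 -0.03, adjusted p = 0.882) overlapped. Per kilobase of exon, the level was 70.2 CPM for Zfp207, 49.6 for Zfp266 and 42.8 for Zfp106.

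By role, the 10 RNA-binding genes tested, which include Zfp207, Zfp106 and Zfp638, held no call. Zfp36 is on this list but, at a mean of 1.41 CPM, lay under the level limit and is no member. Of the 10 genes, 3 were higher and 1 lower at an unadjusted edgeR p under 0.05. DESeq2 called 1 higher and limma-voom 0, and the median of the list was -0.01. Among 14 developmental regulators tested, Zfp365 rose, Zfp462 fell and the median was 0.00. At an unadjusted edgeR p under 0.05, 1 was higher and 4 lower. Zfp536, among those lower, is no member, at a mean of 3.18 CPM. All mutant pools lay below all wild-type pools for 28.6% of the list, against 14.4% of all genes, and above for 7.14%, against 13.8%. Of the other developmental regulators, Zfp521, which acts in neural differentiation, stood at 146, 152 and 143 CPM in wild type and 125, 137 and 127 CPM in the mutant, without overlap (log2 -0.18 ± 0.07 SE, edgeR adjusted p = 0.142). Zfp217 (log2 -0.04) and Zfp219 (log2 0.04) were at 94 to 118 CPM in all pools.

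Members that silence imprinted genes and retroelements gave no call among 5 tested, with 0 higher and 1 lower at an unadjusted edgeR p under 0.05 and none by DESeq2 or limma-voom. Zfp57, a keeper of imprinted methylation, stood at 16.2, 17.9 and 13.2 CPM in wild type and 12.3, 10.6 and 12.2 CPM in the mutant (log2 -0.42 ± 0.14 SE, edgeR adjusted p = 0.0901). Its groups did not overlap. Zfp445, which shares that role, stood at 164, 192 and 199 against 211, 215 and 187 CPM (log2 0.15 ± 0.09 SE, edgeR adjusted p = 0.323). Zfp568, the silencer of a placental Igf2 transcript, stood at 241, 241 and 244 against 230, 258 and 238 CPM (log2 0.00 ± 0.07 SE, edgeR adjusted p = 0.994). The last 2 genes overlapped between genotypes.

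No gene on the list of corepressors used by KRAB proteins rose. Of 26 genes of this list tested, 3 fell (11.5%, against 3.88% of all genes) and 0 rose (against 2.65%). At an unadjusted edgeR p under 0.05, 1 was higher and 8 lower, beside 1534 higher and 1712 lower of all 14008 genes. DESeq2 called 2 lower and limma-voom 2, and the median was -0.09. The hub of the pathway, Trim28, stood at 1436, 1316 and 1312 CPM in wild type and 1387, 1396 and 1476 CPM in the mutant (log2 0.07 ± 0.07 SE, edgeR adjusted p = 0.612). Setdb1 stood at 150 to 161 against 149 to 157 CPM (log2 -0.01 ± 0.07 SE, edgeR adjusted p = 0.973). The genes that fell were the DNA methyltransferases Dnmt1 (log2 -0.26, edgeR adjusted p = 0.0429) and Dnmt3a (log2 -0.29, adjusted p = 0.0406) and the chromatin remodeller Chd4 (log2 -0.26, adjusted p = 0.0434). Dnmt1 went from 659, 606 and 611 CPM in wild type to 496, 519 and 549 CPM in the mutant, with no overlap.

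Related zinc finger families chosen by the same level had medians near or below 0. The Zbtb family joins fingers to a BTB domain, but its genes were taken by symbol, Zbtb8os among them, and their domains were not checked. Among 37 such genes 0 rose and 0 fell, and 4 were higher and 2 lower at an unadjusted edgeR p under 0.05. DESeq2 and limma-voom called none of the 37, and the median was -0.04. Of 10 Zscan genes 1 rose, Zscan10 (log2 0.49 ± 0.13 SE, edgeR adjusted p = 0.0314), DESeq2 called none and limma-voom 1, and the median was -0.08. Of 9 Zkscan genes 0 passed the test, with 2 higher and 1 lower at an unadjusted edgeR p under 0.05 and none by DESeq2 or limma-voom, and the median was 0.01. The KRAB box was searched for only in Zfp proteins, so the genes of these families were not sorted by it. The difference between these families and the KRAB Zfp members was not tested.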

How the data were processed

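RNA of 6 pools was sequenced as total RNA. What the authors deposited is 1 table of raw read counts per gene for each pool, without normalisation. Reads were mapped to mm10 according to the submitters' processing notes, and the sources used here name no aligner or counting program and do not say whether strand was used. Of 54532 gene IDs, 54495 matched GENCODE M21, the source of symbols, coordinates, GC content and proteins.

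The members and gene lists were chosen with earlier results of these data known. The result of 1 marker list is not reported here. Groups and replicate numbers come from the titles, and the name of the mutant group from the genotype entries. Nothing states that pools came from separate litters, so p-values measure the spread between these pools. Genes were kept by edgeR's filterByExpr (14008), scaled by TMM and tested with edgeR's quasi-likelihood test (two-sided, Benjamini-Hochberg over all genes, threshold 0.05). The standard error is the log2 fold change divided by the root of F. A KRAB box was called at a profile score of at least 20 bits over 35 residues. Shared runs are identical stretches of 50 bases in exons of different genes. Named genes are the called members (up to 12 per direction), the 2 smallest p of each cluster, the 5 highest levels, up to 3 further members per role list, the called corepressors with Trim28 and Setdb1, and the neighbours of the level limit. On simulated counts (13797 genes) edgeR found 70.1% of the 1.5-fold changes, 89.4% of the 2-fold changes and 100% of the 4-fold changes that had been put in, and 14 of 186 calls were false. Smaller changes, like those of the 290 members within 0.5 on the log2 scale, were not simulated. Neither was a shift of 1 pool with GC content. Alternatives were DESeq2, limma-voom, other scaling and filters, a replicate block, a Y-linked covariate, a length and GC correction, other cluster gaps and leaving out each pool. Versions were DESeq2 1.42.0, edgeR 4.0.16 and limma 3.58.1 under R 4.3.3.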

Additional observations from a re-analysis of the deposited data

How the results depend on the processing

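The median log2 fold change of the KRAB members stayed positive in every alternative run, from 0.10 to 0.22, and that of all members from 0.06 to 0.11. The counts of called members moved more. They were 23 higher and 6 lower with Y-linked reads as a covariate, 15 and 6 with the length and GC correction, 21 higher without a filter on low counts, 2 and 1 from only the Y-bearing pools, and 16 and 7 at an adjusted p under 0.1. With 1 pool left out they ran from 1 to 25 higher and from 0 to 10 lower. The cause of these moves was not tested. The median of members without KRAB was 0.045 with the length and GC correction.

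The numbers in the titles were not taken as pairs in the main test. Deviations of same-numbered pools correlated at -0.16, 0.05 and -0.06 over 14008 genes. Other pairs ran from -0.21 (wild-type pool 2, mutant pool 3) to 0.27 (wild-type pool 1, mutant pool 3). These values cannot show whether pools shared a litter or batch. The replicate block gave 4 members higher and 2 lower.

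Among clusters, in pools with Y-linked reads the median was 0.13 for cluster 6, 0.11 for 7g, 9b and 17b, and 0.071 for 15. With gaps of 0.5 Mb it was -0.20 for 11b and 0.17 for 15, and with gaps of 2 Mb -0.013 for 7a and 0.10 for 9b. With 1 pool left out, medians ran from 0.0087 to 0.099 for 7a, 0.037 to 0.17 for 7b, -0.015 to 0.12 for 7c, -0.034 to 0.070 for 9b, 0.044 to 0.18 for 11a, -0.027 to 0.067 for 11b and 0.12 to 0.34 for 17b. The smallest pool gave the median member 149 counts, which limits the precision of members near the level limit.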
